A study of Mus musculus with 3 samples.

Results

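The CXC chemokines read here were Cxcl1, Cxcl2, Cxcl9, Cxcl10, Cxcl12, Cxcl13, Cxcl14, Cxcl16 and Pf4, 9 of the 32285 genes listed in each count matrix. They were chosen as a gene family by symbol, not by their values. Their unique molecular identifiers (UMIs, each a captured RNA molecule) were read in droplet barcodes with at least 1000 UMIs and 500 detected genes and at most 10% mitochondrial UMIs, by cell type and by library. The study made single-cell 3′ RNA libraries from the lungs of 3 groups of mice, male and female, 16 to 20 weeks old and given chow with 625 ppm doxycycline, as the labels state. PPARg-/- tumour mice carried Ccsp-rtTA, a TetO-driven EGFR mutant of lung cancer, floxed Pparγ alleles (Pparγfl/fl) and Csf1rCre. WT tumour mice carried the same transgenes and Pparγfl/fl without Cre, and WT healthy mice carried the transgenes with no floxed allele named. Since the labels give WT healthy mice doxycycline chow too, it is not clear from them whether the transgene was induced in that group. Ccsp-rtTA drives the transgene in lung epithelium under doxycycline, and Csf1rCre acts in monocytes, macrophages and related myeloid cells, so that loss of Pparγ need not be limited to alveolar macrophages. Each group was 1 library of cells pooled from 3 mice, sorted as CD11c+SigF+ alveolar macrophages, CD11b+Ly6G- macrophages, CD3+ T cells and EPCAM+ epithelium and mixed in equal amounts. Since a group is 1 library, no groups could be tested against each other, and each interval below is a 95% interval that covers counting error only. The title of the series names another subject, and the groups follow the sample labels.

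Chemokines are small secreted proteins that guide leukocytes through G protein-coupled receptors. Cxcl1 and Cxcl2 carry the ELR motif, bind Cxcr2 and draw neutrophils, and are made within minutes to hours of NF-kB activation. Cxcl9 and Cxcl10 are interferon-induced ligands of Cxcr3, the receptor of activated T cells. Cxcl12 holds and recruits cells through Cxcr4 and is also bound by the scavenger receptor Ackr3, Cxcl13 draws B cells through Cxcr5, and Cxcl16 is a membrane-bound ligand of Cxcr6 that also takes up oxidized lipid. Cxcl14 is an epithelial and stromal chemokine, and Pf4 is best known as platelet factor 4 and is also made by resident macrophages of several mouse tissues. In the lung, macrophages, endothelium and stroma are the usual sources of these ligands.

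Of the 9 genes, 6 lie on chromosome 5 of GRCm38. Pf4 (ENSMUSG00000029373, chr5:90772435-90773383, plus strand), Cxcl1 (ENSMUSG00000029380, chr5:90891241-90893115, plus) and Cxcl2 (ENSMUSG00000058427, chr5:90903871-90905938, plus) stand near each other. Cxcl10 (ENSMUSG00000034855, chr5:92346638-92348889, minus), Cxcl9 (ENSMUSG00000029417, chr5:92321347-92328079, minus) and Cxcl13 (ENSMUSG00000023078, chr5:95956951-95961068, plus) lie further along. Cxcl12 (ENSMUSG00000061353) is at chr6:117168535-117181367 on the plus strand, Cxcl14 (ENSMUSG00000021508) at chr13:56288643-56296551 on the minus strand and Cxcl16 (ENSMUSG00000018920) at chr11:70453983-70459984 on the minus strand. The promoters of the 2 neighbouring pairs are shown because their members are compared below in the same cells. Each run holds the 250 bases before the transcript start, 5′ to 3′ on the strand of the gene, from RefSeq on GRCm38.p6, and capitals mark a match to an NF-kB motif or an interferon-stimulated response element. Cxcl1 is at chr5:90890995-90891244 (plus), Cxcl2 at chr5:90903649-90903898 (plus), Cxcl9 at chr5:92328080-92328329 (minus) and Cxcl10 at chr5:92348890-92349139 (minus).
Cxcl1: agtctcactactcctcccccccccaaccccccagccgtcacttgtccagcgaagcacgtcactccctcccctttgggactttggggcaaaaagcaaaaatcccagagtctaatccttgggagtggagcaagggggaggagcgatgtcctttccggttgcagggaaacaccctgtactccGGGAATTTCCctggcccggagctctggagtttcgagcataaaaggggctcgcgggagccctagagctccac
Cxcl2: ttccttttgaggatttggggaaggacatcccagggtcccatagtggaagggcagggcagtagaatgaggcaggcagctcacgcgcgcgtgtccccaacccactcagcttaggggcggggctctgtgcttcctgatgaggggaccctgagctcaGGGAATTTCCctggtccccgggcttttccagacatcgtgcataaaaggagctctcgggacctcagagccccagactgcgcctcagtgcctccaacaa
Cxcl9: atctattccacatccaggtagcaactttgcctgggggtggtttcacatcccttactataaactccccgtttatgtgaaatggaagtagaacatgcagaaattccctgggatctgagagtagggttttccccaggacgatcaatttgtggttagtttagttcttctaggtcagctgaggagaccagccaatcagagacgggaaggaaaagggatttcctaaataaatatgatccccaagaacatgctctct
Cxcl10: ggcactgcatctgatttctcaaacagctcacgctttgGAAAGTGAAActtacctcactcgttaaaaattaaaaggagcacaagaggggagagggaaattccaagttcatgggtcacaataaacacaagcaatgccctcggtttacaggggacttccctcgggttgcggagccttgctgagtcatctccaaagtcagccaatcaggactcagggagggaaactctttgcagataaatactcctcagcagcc
The NF-kB letters stood 71 bases upstream of the start in Cxcl1 and 97 bases upstream in Cxcl2, as GGGAATTTCC in each; with any base allowed at the fifth place, such letters were in 0.411% of the 32851 promoter windows of 300 bases searched on both strands. The interferon letters stood 213 bases upstream in Cxcl10, as GAAAGTGAAA, and 172 bases upstream in Cxcl14, as GAAACAGAAA; with any bases allowed at the fifth and the sixth place, they were in 3.44% of all windows. No match of one motif overlapped a match of the other in these genes, and neither was found in the window of Cxcl9. RefSeq windows were held for 8 of the 9 genes, all but Cxcl16. A match is a description of the letters and not of binding, and the motifs were chosen with these promoters in view.

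The libraries held 44548318, 46148658 and 30454790 UMIs in PPARg-/- tumour, WT tumour and WT healthy, of which 76.9% to 84.6% were in the 5137, 4374 and 2947 barcodes that passed the limits. Median depth was 3527, 4920.5 and 5667 UMIs per barcode. After removal of barcodes marked as doublets, 4995, 4268 and 2894 cells were kept and clustered without the 9 genes, and clusters were named "like" a cell type by marker genes; the names below are meant in that sense. The largest macrophage clusters were each mostly of 1 library, while a smaller interstitial cluster held 54, 189 and 51 cells of PPARg-/- tumour, WT tumour and WT healthy. The largest non-cycling cluster with alveolar markers, called the main macrophages, held 1160 cells in PPARg-/- tumour, 962 in WT tumour and 898 in WT healthy. In PPARg-/- tumour it had 8 of 12 interstitial and 6 of 12 alveolar macrophage markers raised and was led by Fn1, C1qb and Spp1, whereas the clusters of WT tumour and WT healthy had 11 and 12 of 12 alveolar markers raised. The WT tumour cluster also held 82 PPARg-/- tumour cells, whose levels are not given apart here. A ratio between main macrophages of the tumour libraries thus sets clusters with different markers against each other. Library and cell type cannot be told apart in it, so values over all macrophage clusters (1318, 1275 and 1014 cells) are given beside those of the main macrophages. Endothelial cells, B cells, neutrophils and fibroblasts were present although no sort gate aims at them. Although the labels give both sexes, Xist, the RNA of the inactive X chromosome, stood at 0.292, 0.169 and 1229 CPM in PPARg-/- tumour, WT tumour and WT healthy, and the Y-linked Ddx3y at 75.1, 81.5 and 0.127 CPM. Pairs of libraries shared 4 to 6 barcodes, against 1.90 to 3.31 for barcodes drawn at random. Pparg itself was read at 376, 172 and 196 CPM (the gene's UMIs over all UMIs of the class, on the usual CPM scale) in the main macrophages of PPARg-/- tumour, WT tumour and WT healthy, but the 3′ reads do not check the deletion.

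The chemokines differed in source. Cxcl12 was an endothelial transcript, and Pf4 in every library and Cxcl13 in the tumour libraries had their highest level in interstitial macrophages. Cxcl2 and Cxcl16 were spread over macrophages and dendritic cells, and Cxcl2 was also high in the few neutrophils. Main macrophages held 86.2% of the Cxcl1 UMIs in PPARg-/- tumour and 76.6% in WT healthy. In WT tumour interstitial macrophages held the most Cxcl1, 27.6%. Over all barcodes past the limits, Cxcl2, Cxcl16 and Cxcl12 were the most abundant: Cxcl2 stood at 158, 177 and 370.4 CPM in PPARg-/- tumour, WT tumour and WT healthy, Cxcl16 at 121, 105 and 33.1 CPM, and Cxcl12 at 87.8, 99.0 and 69.8 CPM. Cxcl13 was the rarest, at 4.03, 4.93 and 0.0846 CPM. These are UMIs of 3′ ends and not per length.

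**Figure D1:**
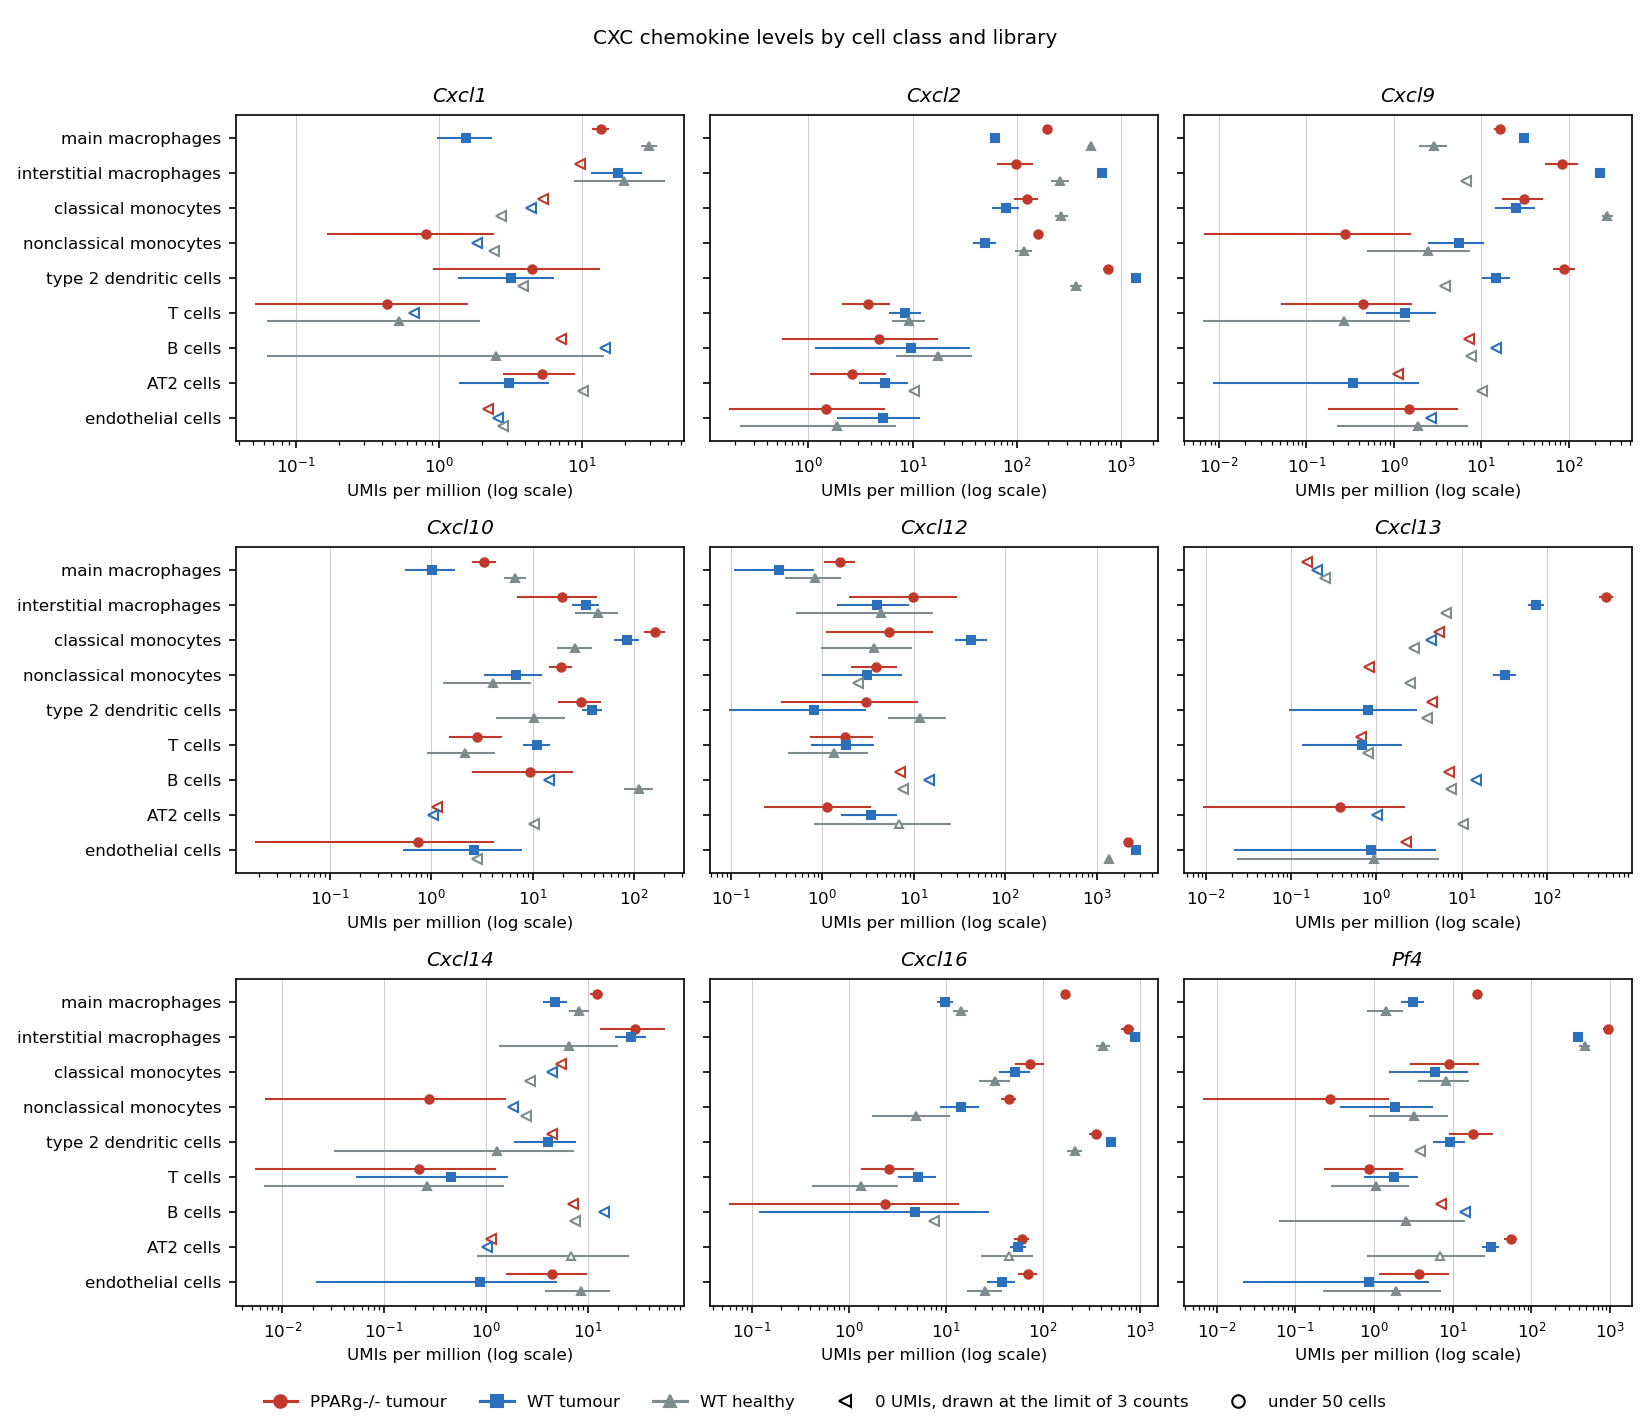
Level of each chemokine (CPM, log scale) in 9 cell classes and 3 libraries; bars are exact Poisson 95% intervals, open triangles mark 0 UMIs at the limit of 3 counts and open circles or triangles with bars mark classes under 50 cells. Cxcl12 stands at 1379 to 2720 in endothelial cells and at 42.8 or less in the other classes drawn, and Cxcl16 in main macrophages stands at 168 in PPARg-/- tumour, above 9.74 in WT tumour and 14.2 in WT healthy.

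In the main macrophages, 7 of the 8 chemokines with at least 20 UMIs over both tumour libraries were higher in PPARg-/- tumour than in WT tumour and 1 was lower. Here a gene is called higher or lower where it differs at least 1.5-fold and its interval leaves out a ratio of 1; this is no test. By it 15% of the 12108 genes read were higher and 18.6% lower (33.6% either way). The median log2 ratio of the 8 was 1.97, beside -0.14 for all genes read, a shift that applies to every ratio in this class. Over all macrophage clusters 4 of 9 were higher and 2 lower, against 11.8% and 18.4% of all genes (30.2% either way), and the median was 0.15 beside -0.16. Between WT tumour and WT healthy, 2 of the 7 read in the main macrophages were higher in WT tumour and 4 lower, against 7.37% and 15.2% of all genes (22.5% either way), with a median of -0.77 beside -0.16. Over all macrophage clusters 5 of 9 were higher and 3 lower, against 8.48% and 12.5% (21.0% either way), with a median of 0.96 beside -0.13. In interstitial macrophages 2 of 8 were higher in PPARg-/- tumour than in WT tumour and 3 lower, against 4.46% and 3.5% of all genes (7.96% either way), and 5 of 8 were higher in WT tumour than in WT healthy and 0 lower, against 4.44% and 8.46% (12.9% either way). Both comparisons use the WT tumour library, and in the second tumour, floxed alleles and the sex of the mice, by the genes named above, differ together and cannot be told apart.

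**Figure D2:**
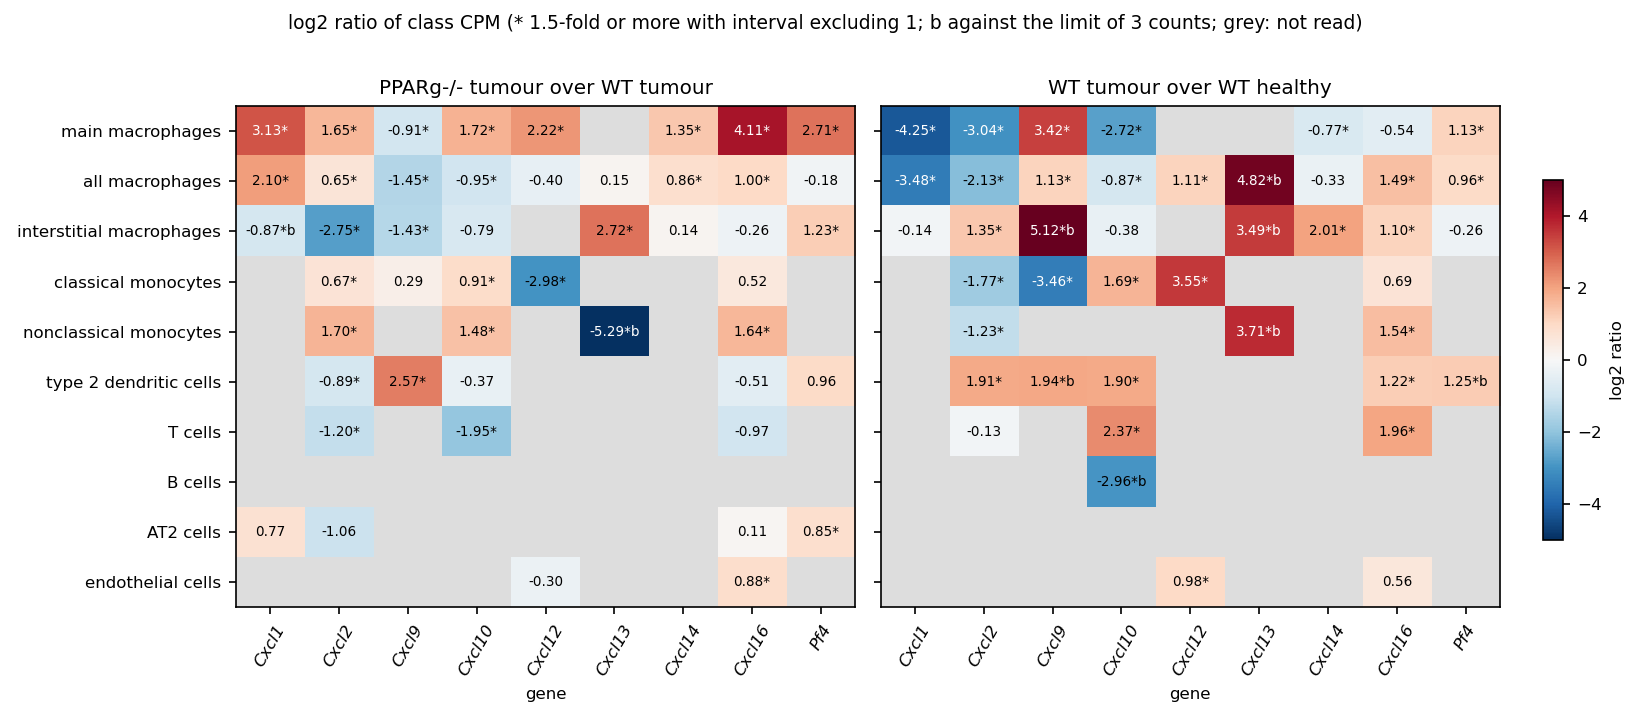
Log2 ratio of class CPM for each chemokine (columns) and class (rows), PPARg-/- tumour over WT tumour on the left and WT tumour over WT healthy on the right; a star marks a called difference, b a bound against 3 counts, and grey fewer than 20 UMIs. Cxcl16 in main macrophages has the highest value on the left, 4.11, and Cxcl2 has the opposite sign in main and interstitial macrophages on both sides.

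Cxcl2, a neutrophil attractant made by activated myeloid cells, had most of its UMIs in main macrophages in PPARg-/- tumour and WT healthy and in type 2 dendritic cells in WT tumour. Main macrophages held 64.4% of its UMIs in PPARg-/- tumour, 14.5% in WT tumour and 69.4% in WT healthy, and type 2 dendritic cells held 54.8% in WT tumour. These shares follow the number of cells as well as the level, and type 2 dendritic cells numbered 73, 222 and 72. Among classes of 50 or more cells they had the highest level in PPARg-/- tumour too, at 753 CPM. In main macrophages the level was 195 CPM (189 to 201) in PPARg-/- tumour, 61.8 CPM (57.9 to 66.0) in WT tumour and 509 CPM (497 to 522) in WT healthy. The ratio was a log2 of 1.65 (1.55 to 1.76) for PPARg-/- tumour over WT tumour and -3.04 (-3.14 to -2.94) for WT tumour over WT healthy. Over all macrophage clusters the levels were 184, 117 and 514 CPM, and the ratios 0.65 and -2.13.

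The share of main macrophages with any Cxcl2 UMI was close in the tumour libraries, 17.8% of cells in PPARg-/- tumour and 18.2% in WT tumour, against 32.2% in WT healthy. After each cell was thinned to 1000 UMIs it was 7.84%, 4.57% and 14.0%. In T cells, which are not a known source, the thinned share was 0.679%, 0.732% and 1.19%. The difference lay in the amount per positive cell: in PPARg-/- tumour 18 cells held 50% of the class's Cxcl2, with up to 203 UMIs in a cell, while the highest WT tumour cell had 43. A finer clustering parted the PPARg-/- tumour main macrophages into 648 cells at 359 CPM and 511 cells at 10.3 CPM, and the 922 WT tumour cells of the finer main cluster lay between them at 63.8 CPM. The 471 PPARg-/- tumour cells at or below 5% mitochondrial UMIs were at 74.4 CPM and the 689 above it at 285 CPM, against 81.4 CPM and 54.7 CPM in WT tumour. The higher Cxcl2 of PPARg-/- tumour was thus not seen in cells of low mitochondrial share, where the log2 ratio was -0.13 (-0.33 to 0.07). With each library clustered alone the ratio was -1.38, but over other cells: the largest cluster then held 552 of the 1160 PPARg-/- tumour cells, with 119 Cxcl2 UMIs, and 480 of the 962 WT tumour cells, while 606 PPARg-/- tumour cells with 3716 Cxcl2 UMIs were counted as interstitial. In WT healthy 56 of the main macrophages formed a finer cluster at 4620 CPM and 839 others stood at 177 CPM.

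Other myeloid classes did not share 1 direction. In PPARg-/- tumour over WT tumour, 9.04% of all genes read were called in nonclassical monocytes, 7.32% in classical monocytes and 6.64% in type 2 dendritic cells, and in WT tumour over WT healthy 10.5%, 9.65% and 15.1%. In nonclassical monocytes Cxcl2 stood at 160.5 CPM (148 to 174) in PPARg-/- tumour, 49.4 (39.2 to 61.5) in WT tumour and 116 (97.7 to 137) in WT healthy, and in classical monocytes at 124, 78.1 and 267 CPM. PPARg-/- tumour was higher than WT tumour in both, by a log2 of 1.70 (1.36 to 2.05) and 0.67 (0.13 to 1.22), and WT tumour was lower than WT healthy, by -1.23 (-1.64 to -0.83) and -1.77 (-2.23 to -1.35). The nonclassical class joined 2 clusters, of which the larger in PPARg-/- tumour held 678 of 1027 cells there, 225 of 493 in WT tumour and 23 of 241 in WT healthy. In type 2 dendritic cells the level was 753 CPM (689 to 822) in PPARg-/- tumour, 1392 (1345 to 1439) in WT tumour and 369 (328 to 415) in WT healthy, where 1 cell held 189 of the 285 UMIs. The ratios were -0.89 (-1.02 to -0.75) and 1.91 (1.74 to 2.09). In interstitial macrophages it was 97.9 CPM (66.0 to 139.8) in PPARg-/- tumour, 660.5 (620.1 to 703) in WT tumour and 259.8 (215 to 311) in WT healthy, with ratios of -2.75 (-3.33 to -2.23) and 1.35 (1.07 to 1.63). WT tumour was therefore the lowest library in main macrophages and both monocyte classes and the highest in dendritic cells and interstitial macrophages. Free RNA, read in barcodes far below the limits, stood at 122 CPM in PPARg-/- tumour, 112 in WT tumour and 269 in WT healthy. That is above both monocyte classes of WT tumour and WT healthy and the main macrophages of WT tumour. It is also above the interstitial macrophages of PPARg-/- tumour and WT healthy. Classical monocytes of PPARg-/- tumour, at 124 CPM, stood close to it. The part of free RNA in these Cxcl2 ratios was not tested. The highest level of any named class was in neutrophils, 11382, 5507 and 9811 CPM in 27, 18 and 21 cells.

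Cxcl1, which shares Cxcr2 with Cxcl2, had the same order of libraries in main macrophages at a far lower level. Main macrophages held 269 UMIs at 13.7 CPM (12.1 to 15.4) in PPARg-/- tumour, 23 at 1.56 CPM (0.986 to 2.33) in WT tumour and 354 at 29.7 CPM (26.7 to 32.9) in WT healthy. The log2 ratios were 3.13 (2.52 to 3.82) for PPARg-/- tumour over WT tumour and -4.25 (-4.93 to -3.64) for WT tumour over WT healthy, and over all macrophages 2.10 and -3.48. The UMIs came from few cells, 49, 12 and 67 in the 3 main clusters, and 50% of them from 7, 3 and 9. In the finer clusters of PPARg-/- tumour it stood at 25.3 CPM in the 648 cells rich in Cxcl2 and at 0.540 CPM in the 511 others. Of the barcodes with Cxcl1, 63.9% in PPARg-/- tumour, 66.7% in WT tumour and 85.2% in WT healthy also had Cxcl2, which was itself in 9.21%, 10.6% and 15.8% of all barcodes. In the other direction, 9.73%, 5.16% and 14.8% of the barcodes with Cxcl2 had Cxcl1. Interstitial macrophages had 0 Cxcl1 UMIs of 54 cells in PPARg-/- tumour, where 3 counts would be 9.79 CPM, 27 UMIs at 17.9 CPM in WT tumour and 9 at 19.8 CPM in WT healthy, with 19 of the 27 in 1 cell. In WT tumour migratory dendritic cells, 28 in number, held 25 of the 98 UMIs.

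An early inflammatory and NF-kB list was read in the same main macrophages. Of 15 read, 9 were higher and 1 lower in PPARg-/- tumour than in WT tumour, against 15% and 18.6% of all genes, with a median log2 ratio of 0.76 beside -0.14. Between WT tumour and WT healthy 0 were higher and 13 lower in WT tumour, against 7.37% and 15.2%, with a median of -1.59 beside -0.16. Ccl2, a monocyte attractant, had ratios of 4.77 and -3.26, Tnf had 1.16 and -2.51, and Nfkbia, the feedback inhibitor of NF-kB, had 1.17 and -1.71. Il1b was the exception in the first comparison, at -1.03. Of 14 genes that rise in cells during tissue dissociation, 4 were higher and 2 lower in PPARg-/- tumour than in WT tumour, and 0 were higher and 10 lower in WT tumour than in WT healthy, against the same shares of all genes, with medians of 0.37 and -1.10. Its part in the Cxcl1 and Cxcl2 values was not tested. In interstitial macrophages, 1 gene of the NF-kB list was higher and 6 lower in PPARg-/- tumour than in WT tumour, and 6 were higher and 1 lower in WT tumour than in WT healthy, with medians of -0.45 and 0.51 beside 0.01 and -0.08 for all genes. All genes were called there in 4.46% higher and 3.5% lower, and in 4.44% and 8.46%. Cxcl3, another Cxcr2 ligand, had 4, 17 and 150 UMIs in the main macrophages of PPARg-/- tumour, WT tumour and WT healthy and 29, 43 and 0 in AT2 cells.

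Cxcl16 gave the widest difference between the tumour libraries in main macrophages, though not over all macrophage clusters. Main macrophages held 3314 UMIs at 168 CPM (163 to 174) in PPARg-/- tumour, 144 at 9.74 CPM (8.21 to 11.5) in WT tumour and 169 at 14.2 CPM (12.1 to 16.5) in WT healthy. The log2 ratio of PPARg-/- tumour over WT tumour was 4.11 (3.87 to 4.36), and that of WT tumour over WT healthy, -0.54 (-0.87 to -0.21), stayed under 1.5-fold. Unlike Cxcl2, it was present in most cells of the PPARg-/- tumour cluster: 978 of 1160 cells had a UMI, against 117 of 962 in WT tumour and 114 of 898 in WT healthy. After thinning to 1000 UMIs, 15.7% (13.6% to 17.9%) of cells had one in PPARg-/- tumour, 0.728% (0.293% to 1.49%) in WT tumour and 1.11% (0.535% to 2.04%) in WT healthy. In T cells, which bear its receptor and are not a usual source, the thinned shares were 0.432%, 0.0732% and 0.108%. No cell weighed much on the class, since the top cell held 27, 6 and 10 UMIs. Both finer clusters of PPARg-/- tumour were raised, at 210 and 122 CPM, and so were cells on either side of 5% mitochondrial UMIs, at 146 and 185 CPM, against 6.36 and 10.96 CPM in WT tumour.

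**Figure D3:**
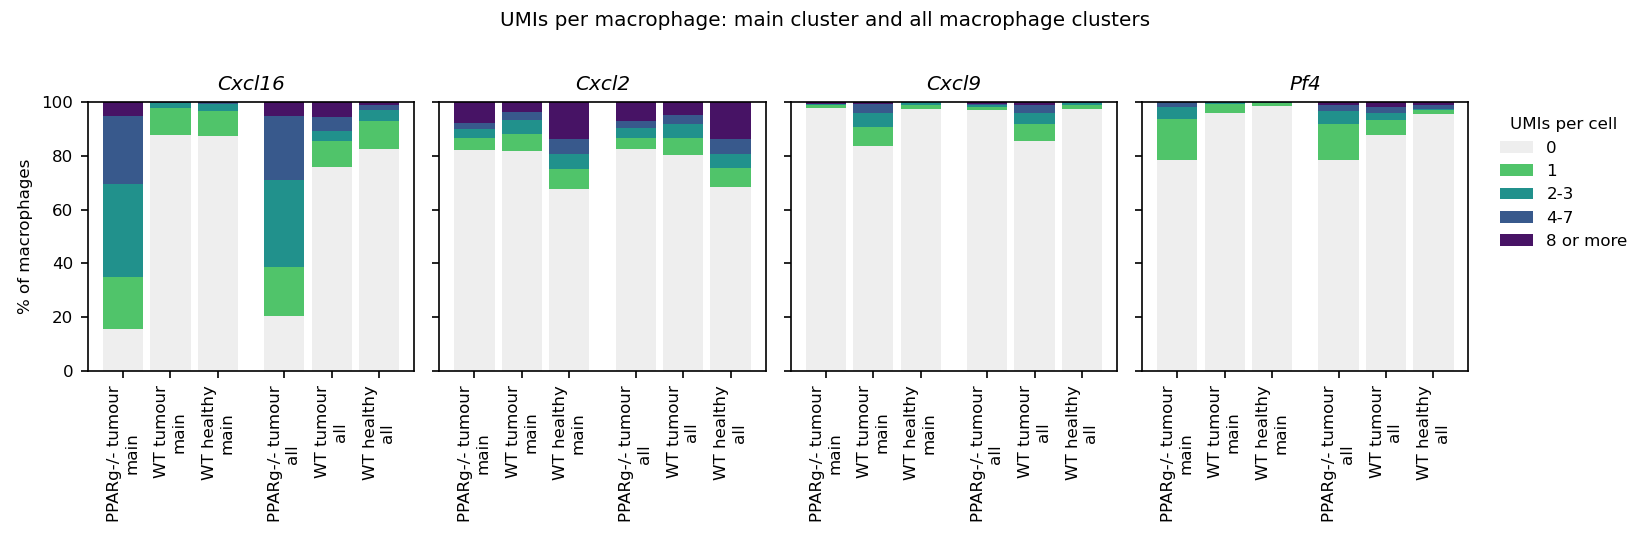
Share of macrophages (percent) by the number of UMIs per cell, in the main cluster and over all macrophage clusters of each library, for Cxcl16, Cxcl2, Cxcl9 and Pf4; bars add to 100%. For Cxcl16, 15.7% of PPARg-/- tumour main macrophages have no UMI, against 87.8% in WT tumour and 87.3% in WT healthy, whereas for Cxcl2 the bars of the tumour libraries differ mainly in the cells with 8 or more.

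The level that the PPARg-/- tumour main macrophages reached was still under that of the interstitial macrophages, which stood at 747 CPM (654 to 851) in PPARg-/- tumour, 895 (848 to 944) in WT tumour and 418 (361 to 482) in WT healthy. There PPARg-/- tumour over WT tumour was a log2 of -0.26 (-0.47 to -0.06), under 1.5-fold, and WT tumour over WT healthy was 1.10 (0.88 to 1.32). Over all macrophage clusters Cxcl16 was 168 CPM in PPARg-/- tumour, 84.3 in WT tumour and 30.04 in WT healthy, log2 ratios of 1.00 and 1.49. Migratory dendritic cells had 1014, 849 and 912 CPM in 11, 28 and 13 cells, and type 2 dendritic cells 348, 496 and 213 CPM. Nonclassical monocytes stood at 44.4 CPM (37.9 to 51.8) in PPARg-/- tumour, 14.2 (9.01 to 21.3) in WT tumour and 4.90 (1.80 to 10.7) in WT healthy, and endothelial cells at 69.4, 37.6 and 25.6 CPM. PPARg-/- tumour was higher than WT tumour in both, by a log2 of 1.64 (1.01 to 2.34) and 0.88 (0.35 to 1.44), where 7.81% of all genes read in endothelial cells were called. These levels lie below those of free RNA, 135 CPM in PPARg-/- tumour and 77.5 in WT tumour, whose part in them was not tested. AT2 cells, the surfactant-making epithelium, had 60.2 and 55.6 CPM in PPARg-/- tumour and WT tumour, a log2 ratio of 0.11 (-0.21 to 0.44), and 44.7 CPM from 13 UMIs in the 41 WT healthy cells. Of the genes of chemokine cleavage, Adam10 and Adam17, sheddases of Cxcl16, had log2 ratios of 0.24 and -0.49 in main macrophages of PPARg-/- tumour over WT tumour, both under 1.5-fold. Of the 5 read, Mmp12 and Ctsl were higher, at 5.25 and 0.85, and none was lower. Of all genes in this class 15% were higher and 18.6% lower (33.6% either way).

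Cxcl9 and Cxcl10 were carried by small numbers of cells, so that class levels rest on few of them. In main macrophages Cxcl9 stood at 16.2 CPM (14.5 to 18.1) in PPARg-/- tumour, 30.4 (27.7 to 33.4) in WT tumour and 2.85 (1.97 to 3.98) in WT healthy. It was the only member lower in PPARg-/- tumour than in WT tumour in this class, with a log2 ratio of -0.91 (-1.12 to -0.70), and was higher in WT tumour than in WT healthy, at 3.42 (2.91 to 3.97). The cells behind the levels differed: 157 of 962 WT tumour cells had a UMI, with at most 27 in a cell, whereas 26 of 1160 did in PPARg-/- tumour, where 1 cell held 84 of 319, and 22 of 898 in WT healthy. After thinning to 1000 UMIs the shares were 0.517%, 2.39% and 0.557%, beside 0%, 0% and 0.108% in T cells, which are not a known source. The levels lie below those of free RNA, 21.8, 51.8 and 6.42 CPM, whose part in them was not tested. In cells at or below 5% mitochondrial UMIs Cxcl9 stood at 4.74 CPM in PPARg-/- tumour and 36.9 in WT tumour, and above it at 24.8 and 28.1 CPM. Over all macrophages the levels were 17.6, 48.0 and 22.0 CPM. The ratio of WT tumour over WT healthy there was 1.13 and became 3.87 without the top cell of each library, since 1 WT healthy macrophage held 258 of 296 UMIs.

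Classical monocytes stood at 30.7 CPM in PPARg-/- tumour, 25.1 in WT tumour and 277 in WT healthy. In each library 1 cell held most of them, with 16 of 17 UMIs in PPARg-/- tumour, 17 of 17 in WT tumour and 240 of 303 in WT healthy. In interstitial macrophages Cxcl9 was at 84.8 CPM (55.4 to 124) in PPARg-/- tumour, 229 (206 to 255) in WT tumour and 0 of 51 cells in WT healthy, where 3 counts would be 6.60 CPM. There 1 PPARg-/- tumour cell held 23 of 26 UMIs, and 9 WT tumour cells held 345. In type 2 dendritic cells the log2 ratio of 2.57 for PPARg-/- tumour over WT tumour became 0.42, with an interval that includes 1, without the top cell of each.

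**Figure D4:**
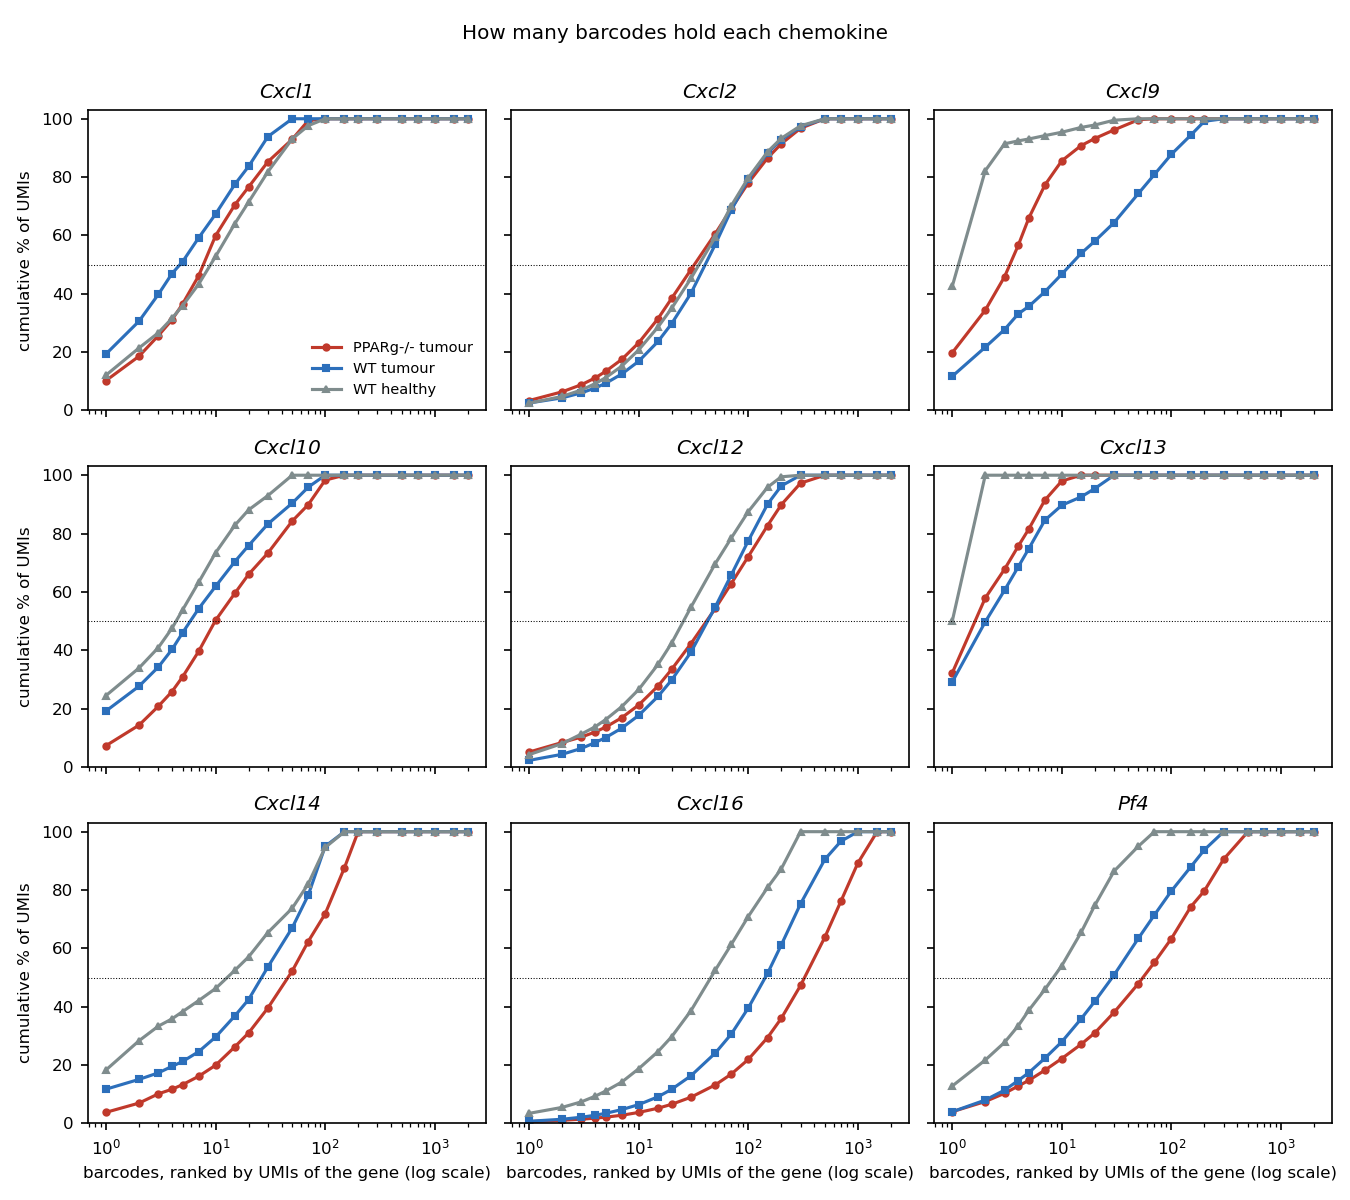
Cumulative share of the UMIs of each chemokine (percent) against barcodes ranked by their UMIs of it (log scale), for the barcodes past the limits in each library; the dotted line is 50%. Cxcl16 needs 330, 144 and 46 barcodes to reach it in PPARg-/- tumour, WT tumour and WT healthy, and Cxcl9 needs 4, 12 and 2.

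Cxcl10, like Cxcl9 a ligand of Cxcr3, was in 2.06%, 1.94% and 1.70% of all barcodes in PPARg-/- tumour, WT tumour and WT healthy. Of the barcodes with Cxcl9, 9.62% in PPARg-/- tumour, 4.78% in WT tumour and 12.1% in WT healthy also had Cxcl10. Its highest levels among classes of 50 or more cells in the tumour libraries were in classical monocytes, 160.5 CPM (129 to 197) in PPARg-/- tumour and 85.5 (64.9 to 111) in WT tumour, against 26.5 (17.7 to 38.0) in WT healthy. Nonclassical monocytes had 18.9, 6.80 and 4.08 CPM, and 42 PPARg-/- tumour cells carried it with at most 8 UMIs each. In both monocyte classes PPARg-/- tumour was higher than WT tumour, with log2 ratios of 0.91 (0.41 to 1.41) and 1.48 (0.55 to 2.55), whereas T cells had 2.85 CPM in PPARg-/- tumour, 11.01 in WT tumour and 2.13 in WT healthy, a ratio of -1.95 (-2.96 to -1.05) between the tumour libraries. In main macrophages Cxcl10 stood at 3.35, 1.01 and 6.71 CPM, from 66, 15 and 80 UMIs. Free RNA stood at 3.71 CPM in PPARg-/- tumour, 14.7 in WT tumour and 7.90 in WT healthy. That is above the T cells and main macrophages of every library and the nonclassical monocytes of WT tumour and WT healthy. The part of free RNA there was not tested. Over all macrophages the order of the tumour libraries turned, to 3.74 CPM in PPARg-/- tumour and 7.24 in WT tumour, and 63 of the 130 WT tumour UMIs were in cycling alveolar macrophages and 51 in interstitial macrophages. In WT healthy the highest class of 50 or more cells was B cells, at 113 CPM, where 45 UMIs came from 2 of 70 cells.

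The other genes of the interferon-gamma list did not move in 1 direction in main macrophages. Of 15 read, 3 were higher and 3 lower in PPARg-/- tumour than in WT tumour, near the 33.6% of all genes called either way: Ifngr1, a chain of the interferon-gamma receptor, Iigp1 and Socs1 were higher, at 1.08, 0.73 and 1.07, and Irf1 and Serpina3g were among those lower, at -0.64 and -2.98. Between WT tumour and WT healthy 3 were higher and 1 lower, near the 22.5% of all genes called, and among those higher were the GTPases Iigp1, at 2.50, and Irgm1, at 0.60. Serpina3g had 0 UMIs in WT healthy, and against 3 counts the ratio was 4.37.

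Pf4 had its highest level of any class of 50 or more cells in interstitial macrophages, at 933 CPM (828 to 1048) in 54 PPARg-/- tumour cells, 397 (366 to 431) in 189 WT tumour cells and 476 (414 to 543) in 51 WT healthy cells. They held 31.0% of its UMIs in PPARg-/- tumour, where main macrophages held 43.6%, and 70.3% and 76.9% in WT tumour and WT healthy. The log2 ratio of PPARg-/- tumour over WT tumour was 1.23 (1.02 to 1.44), and that of WT tumour over WT healthy, -0.26 (-0.49 to -0.03), stayed under 1.5-fold. The first became -3.24 in a finer clustering, where the same 54 and 189 cells were joined in the class by 511 PPARg-/- tumour main macrophages with 114 Pf4 UMIs. It became -2.77 with each library clustered alone, where 606 main macrophages joined the class in PPARg-/- tumour. In main macrophages it stood at 20.4 CPM (18.5 to 22.5) in 248 of 1160 PPARg-/- tumour cells, 3.11 (2.28 to 4.15) in 40 of 962 WT tumour cells and 1.42 (0.830 to 2.28) in 12 of 898 WT healthy cells, with ratios of 2.71 (2.27 to 3.19) and 1.13 (0.30 to 2.02). Both ratios lie at levels below those of free RNA, 63.0 CPM in PPARg-/- tumour, 28.0 in WT tumour and 33.6 in WT healthy, whose part in them was not tested. Over all macrophage clusters Pf4 was 32.3 CPM in PPARg-/- tumour and 36.7 in WT tumour, a log2 ratio of -0.18 (-0.34 to -0.03), and 18.8 in WT healthy.

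AT2 cells also held Pf4. They stood at 54.9 CPM (46.4 to 64.6) in PPARg-/- tumour, from 146 UMIs in 70 of 175 cells, at 30.6 CPM (24.5 to 37.6) in WT tumour, from 89 UMIs in 56 of 186 cells, and at 6.87 CPM from 2 UMIs in the 41 WT healthy cells. The ratio of PPARg-/- tumour over WT tumour was 0.85 (0.46 to 1.24), where 9.07% of all genes read in AT2 cells were called, and no cell had more than 8 UMIs. T cells stood at 0.876, 1.80 and 1.07 CPM and endothelial cells at 3.69, 0.875 and 1.89 CPM, beside 63.0, 28.0 and 33.6 CPM in the free RNA of PPARg-/- tumour, WT tumour and WT healthy. The complement genes C1qa, C1qb and C1qc are interstitial macrophage markers but were also among the leading genes of PPARg-/- tumour main macrophages. For each 100 of their UMIs, AT2 cells had 62.9 Pf4 UMIs in PPARg-/- tumour and 890.0 in WT tumour. Only 10 C1q UMIs were found in the AT2 cells of WT tumour. Interstitial macrophages had 6.95 and 2.996, and free RNA 2.12 and 5.71, while the value of main macrophages is not given here. The part of free RNA in the Pf4 of AT2 cells was not tested. The platelet genes Ppbp, Gp9, Itga2b and Tubb1 together gave 6 and 4 UMIs in the AT2 cells of PPARg-/- tumour and WT tumour.

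Cxcl12 was endothelial. Endothelial cells held 90.3% of its UMIs in PPARg-/- tumour, 88.5% in WT tumour and 88.3% in WT healthy, at 2205 CPM (2126 to 2285), 2720.4 CPM (2626 to 2818) and 1379 CPM (1309 to 1452). PPARg-/- tumour over WT tumour was a log2 of -0.30 (-0.38 to -0.23), under 1.5-fold, and WT tumour over WT healthy was 0.98 (0.89 to 1.07), where 11.8% of all genes read in endothelial cells were called. It was present in 295 of 384, 224 of 249 and 166 of 220 cells, and in 61.5%, 73.1% and 52.7% after thinning. Main macrophages had 1.57, 0.338 and 0.838 CPM from 31, 5 and 10 UMIs, and the log2 ratio of 2.22 (0.84 to 3.94) there lies far below the free RNA, 38.7 and 15.8 CPM in PPARg-/- tumour and WT tumour, whose part in it was not tested. Over all macrophages it was -0.40 (-1.06 to 0.26). The higher value of WT tumour classical monocytes, 42.8 CPM, was 29 UMIs in 1 cell. A cluster of 160 WT tumour cells with markers of several epithelial types, left unnamed, held 109 UMIs at 64.8 CPM in 12 cells. The few fibroblasts had 142 CPM in WT tumour and 326 CPM in WT healthy, from 7 cells each.

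Cxcl13, the B cell attractant, was found in interstitial macrophages of the tumour libraries. It stood at 489 CPM (414 to 574) in PPARg-/- tumour, from 150 UMIs in 11 of 54 cells, at 74.4 CPM (61.3 to 89.6) in WT tumour, from 112 UMIs in 15 of 189 cells, and at 0 UMIs in 51 WT healthy cells, where 3 counts would be 6.60 CPM. The log2 ratio of PPARg-/- tumour over WT tumour was 2.72 (2.35 to 3.08) and held without the top cell of each, 49 and 36 UMIs. It became -2.24 and -2.30 in those 2 other clusterings, where the 511 or 606 main macrophages that joined the class in PPARg-/- tumour held 0 Cxcl13 UMIs. The UMIs per library were 152, 175 and 2. A nonclassical monocyte of WT tumour held 51 UMIs, 29.1% of that library's Cxcl13, and main macrophages had 0 in every library. In WT tumour 46.9% of all Cxcl13 UMIs of the library lay in barcodes of 10 to 100 UMIs, 212 UMIs at 58.7 CPM (51.1 to 67.2), against 4.93 CPM in the barcodes past the limits, and 11.5 and 0.988 CPM in the free RNA of PPARg-/- tumour and WT healthy.

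**Figure D5:**
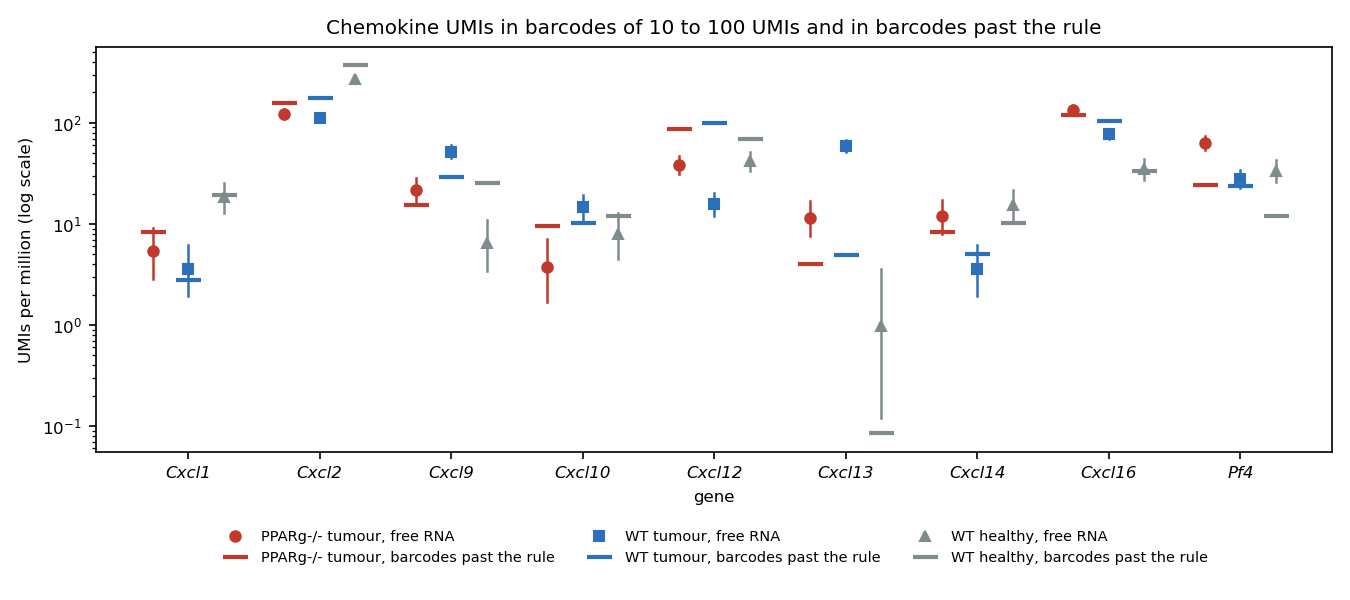
Level of each chemokine (CPM, log scale) in barcodes of 10 to 100 UMIs, as points with Poisson 95% intervals, and in barcodes past the limits, as dashes, for each library. Cxcl13 in WT tumour is at 58.7 in the small barcodes and 4.93 past the limits, while Cxcl12 in WT tumour is at 15.8 and 99.0.

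Cxcl14, the epithelial and stromal chemokine, was low in most classes. Main macrophages had 12.2 CPM (10.7 to 13.9) in 154 of 1160 cells in PPARg-/- tumour, 4.803 (3.75 to 6.06) in 52 of 962 cells in WT tumour and 8.21 (6.67 to 10.0) in 70 of 898 cells in WT healthy. The log2 ratios were 1.35 (0.96 to 1.75) and -0.77 (-1.24 to -0.32), and over all macrophages 0.86 and -0.33. Free RNA stood at 11.9, 3.5997 and 15.3 CPM, and after thinning 0.862%, 0.104% and 0.668% of main macrophages had a UMI, beside 0.0617%, 0.0732% and 0% of T cells; the part of free RNA in these levels was not tested. Interstitial macrophages had 29.4, 26.6 and 6.60 CPM from 9, 40 and 3 UMIs. Its highest level was in the 6, 7 and 7 fibroblasts, 622, 452 and 1057 CPM, where 1 cell held 44 of the 81 WT healthy UMIs.

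Of the receptors, Cxcr2 was highest in neutrophils, at 1047, 493 and 919 CPM in PPARg-/- tumour, WT tumour and WT healthy. In main macrophages Cxcr1 stood at 1.98 CPM in PPARg-/- tumour, 17.6 in WT tumour and 12.5 in WT healthy, and Cxcr2 at 4.92, 9.54 and 9.64, with log2 ratios of PPARg-/- tumour over WT tumour of -3.15 (-3.68 to -2.66) and -0.95 (-1.34 to -0.57). Cxcr4 went the other way, so that 1 of the 3 receptors read was higher and 2 were lower. Of all genes in this class 15% were higher and 18.6% lower (33.6% either way). T cells had Cxcr3 at 38.1, 50.5 and 19.4 CPM and Cxcr6 at 75.8, 96.8 and 44.7 CPM. WT tumour was higher than WT healthy in both, at 1.38 (0.99 to 1.78) and 1.11 (0.85 to 1.38), and in Cxcr5, at 1.92 (0.32 to 3.95), while Cxcr4 was lower, at -1.23 (-1.50 to -0.97). These were 3 of 4 receptors higher and 1 lower, against 7.5% and 4.38% of all genes in T cells (11.9% either way). Between the tumour libraries 1 of 4, Cxcr4, was lower in PPARg-/- tumour, at -0.84 (-1.21 to -0.48), against 4.87% of all genes lower and 1.84% higher (6.71% either way). Nonclassical monocytes had Cxcr4 at 165, 311 and 506 CPM. Cxcr5 was in B cells, at 95.2, 121 and 75.6 CPM, and Ackr3 in endothelial cells, at 49.4, 76.2 and 60.6 CPM.

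Among the other CXC ligands, Cxcl15, a lung epithelial chemokine known from the mouse, outnumbered every member in the tumour libraries. Its UMIs were 34443, 32610 and 2709 in PPARg-/- tumour, WT tumour and WT healthy, and AT2 cells held 89.8% to 97.01% of them. The AT2 cells numbered 175, 186 and 41, so these totals follow the number of cells as well as the level per cell. It was read at 27.2, 45.1 and 1.07 CPM in T cells, which are not its source, and 1298, 1816 and 261 CPM in free RNA. By likeness of level over the 29 class and library profiles of 50 or more cells, which share libraries and depth, the genes most like Cxcl12 were Cdh5 and Clec14a, endothelial surface proteins, with Pearson's r of 0.98 each. Pf4 was most like Ccl8 and Ccl12, chemokines of resident macrophages, with 0.93 each, and Cxcl2 most like Nlrp3, the inflammasome sensor, and Cfp, with 0.92 and 0.90. Cxcl13 was most like Tmem119 and Fgf2, with 0.85 and 0.82, and Cxcl14 most like Gtf2h2 and Ctsf, with 0.87 and 0.85. Cxcl16 was most like Arhgap22 and Sult1a1, with 0.85 each. Cxcl9 was most like A630001O12Rik and Gm37168, with 0.76 and 0.73, and Cxcl10 most like Kif9 and F13a1, with 0.73 each.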

How the data were processed

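Per the submitters' processing notes, reads were processed with Cell Ranger 6.0.1 against mm10 and analysed with Seurat 4.0.1; the matrix headers name Cell Ranger 4, and no source used here gives the authors' filters. The deposited matrices hold UMI counts per gene and barcode, not normalized and not limited to cells, in 3 libraries of 1 per group. From them barcodes with at least 1000 UMIs, 500 genes and at most 10% mitochondrial UMIs were kept, doublets marked by Scrublet within each library (scanpy 1.11.5, expected rate 0.06) were removed, and cells of all libraries were clustered together (2000 variable genes without the chemokines, Pparg and sex-linked genes, 30 components, 15 neighbours, Leiden resolution 1.0 with leidenalg 0.10.2). Clusters were named from marker lists. Counts were summed per library and class and given as CPM with exact Poisson intervals; shares have exact Clopper-Pearson intervals, and ratios exact conditional binomial ones. All are 95% intervals of counting error only, and no p-value was computed. Genes with at least 20 UMIs over both libraries were read, in classes of at least 50 cells in both, and a count of 0 was set to 3. Free RNA was read in barcodes of 10 to 100 UMIs. Numerical work used Python 3.11.15, numpy 2.4.6, scipy 1.17.1 and pandas 2.3.3. The ratio was checked on simulated Poisson counts, which leave out the spread between cells and between mice.

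All 9 chemokines are named, and for each the genes most like it by Pearson's r of log2(CPM + 10) over class profiles; of the other lists, called genes and receptors may be named. Some genes that this rule names, among them those most like Cxcl1, are not reported here. The chemokines and lists were chosen with earlier results of these data known. Cxcl11 was not analysed here. Alternatives changed the treatment of doublets, the limits on barcodes and genes, the clustering, the weight of cells, the scaling, the top cell, free RNA, the fold and the clusters summed.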

Additional observations from a re-analysis of the deposited data

Results flagged for a closer look

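Several chemokines had called log2 ratios of opposite sign in different cell classes of the same 2 libraries; these differences between classes were not tested. For PPARg-/- tumour over WT tumour, Cxcl2 was at 1.65 in main macrophages, 1.70 in nonclassical monocytes and 0.67 in classical monocytes, but at -0.89 in type 2 dendritic cells and -2.75 in interstitial macrophages. For WT tumour over WT healthy the same 5 classes gave -3.04, -1.23, -1.77, 1.91 and 1.35. Cxcl10 was at 1.72 in main macrophages, 1.48 in nonclassical monocytes and 0.91 in classical monocytes but at -1.95 in T cells for PPARg-/- tumour over WT tumour. For WT tumour over WT healthy it was at -2.72 in main macrophages, but at 2.37 in T cells, 1.69 in classical monocytes and 1.90 in type 2 dendritic cells. In the last, 1 WT tumour cell held 70 of 96 UMIs and 1 WT healthy cell 7 of 8, and without both the ratio was 2.97 (0.36 to 8.32). The Cxcl10 levels of T cells and main macrophages lie below free RNA, which stood at 3.71 CPM in PPARg-/- tumour, 14.7 in WT tumour and 7.90 in WT healthy. Nonclassical monocytes lie below it in WT tumour and WT healthy. For Cxcl2, free RNA stood at 122, 112 and 269 CPM, above both monocyte classes in WT tumour and WT healthy. It also stood above the main macrophages of WT tumour and the interstitial macrophages of PPARg-/- tumour and WT healthy. Main macrophage levels of Cxcl9 lie below free RNA too. Cxcl9 in WT tumour over WT healthy was at 3.42 in main macrophages, against -3.46 in classical monocytes. In these monocytes 1 cell of each library held most of the Cxcl9 UMIs. In interstitial macrophages, with the 0 UMIs of WT healthy set to 3 counts, the Cxcl9 ratio was 5.12 (4.81 or more). Cxcl14 in the same comparison was at -0.77 in main macrophages and 2.01 (0.36 to 4.35) in interstitial macrophages. The latter rests on few WT healthy UMIs. For Cxcl14, free RNA of WT healthy stood at 15.3 CPM, above both of these classes there.

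Barcodes of 10 to 100 UMIs are not used in the comparisons above. In the tumour libraries they held more of some chemokines than in WT healthy, and less of others. The log2 ratios over WT healthy were 3.55 in PPARg-/- tumour and 5.89 in WT tumour for Cxcl13, 1.77 and 3.01 for Cxcl9, and 1.97 and 1.17 for Cxcl16. Pf4 was at 0.91 in PPARg-/- tumour, and Cxcl10 at 0.89 in WT tumour. The Cxcl13 ratios rest on 2 UMIs in WT healthy. Lower in PPARg-/- tumour and WT tumour were Cxcl1, at -1.77 and -2.34, and Cxcl2, at -1.13 and -1.27. Cxcl12, at -1.39, and Cxcl14, at -2.09, were lower in WT tumour. The share of all genes called in these barcodes was not computed.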

How the results depend on the processing

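The count of chemokines called in main macrophages for PPARg-/- tumour over WT tumour, 8, became 4 at a mitochondrial limit of 5% (6 read) and 5 with each library clustered alone (5 read), and lay between 6 and 8 under the other settings; for WT tumour over WT healthy, 6, it lay between 5 and 8. The class holding most UMIs of each chemokine was the same in 17 of 27 cases at the 5% limit and in 13 of 27 with each library clustered alone, where class names differ. Of 569 single ratios recomputed, 461 stayed within the interval of the reported value, 96 moved and 12 changed sign. A change of sign was counted only where the reported ratio was called. For PPARg-/- tumour over WT tumour, Cxcl2 in main macrophages became -0.13 at the 5% limit and -1.38 with each library clustered alone. In interstitial macrophages, Cxcl13 became -2.24 and Pf4 -3.24 at Leiden resolution 2.0, and with each library clustered alone Cxcl13 became -2.30, Pf4 -2.77 and Cxcl1 0.57. With all macrophage clusters summed, an alternative chosen after seeing the data, Cxcl10 became -0.95, Cxcl12 -0.40 and Pf4 -0.18. With doublets kept, Cxcl2 in T cells became 1.59. For WT tumour over WT healthy, Cxcl10 in type 2 dendritic cells became -0.030 at the 5% limit, which leaves out the WT tumour cell that held 70 of the 96 UMIs, at 5.10% mitochondrial UMIs. In interstitial macrophages 511 PPARg-/- tumour main macrophages were counted in the class at resolution 2.0 and 606 with each library clustered alone. The cause of the other changes was not tested. No paired analysis was possible because each group is 1 library, and for the same reason no replicate could be left out. Depth limits Cxcl1, Cxcl10, Cxcl12 and Cxcl13 outside their main sources, where classes held few UMIs.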
